A study of Mus musculus with 4 samples.

Results

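The genes that carry zinc and iron across membranes and store them were followed over 4 subsets of dendritic cells (DCs), the antigen-presenting cells that prime T cells. The members were the ZIP (Slc39a), ZnT (Slc30a) and Slc11a transporter families together with 12 named genes of iron and zinc handling, matched by symbol in the annotation of the array. They came to 38 of the 18193 genes measured, and 32 of the 38 were detected, that is, exceeded the floor on 1 array or more, as did 12673 of all genes. Each gene was read from its probe set (a set of short oligonucleotides for 1 transcript) with the highest mean log2 signal. The subsets were CD8+CX3CR1+, CD8+CX3CR1-, CD4+ and DN DCs, where DN usually stands for cells with neither CD8 nor CD4, all sorted from the spleen with high surface CD11c. All 4 came from mice of the Cx3cr1gfp/+ genotype on C57BL/6, in which 1 copy of the chemokine receptor gene Cx3cr1 is replaced by green fluorescent protein, and all are labelled as not treated with BMP4. The sources used here give neither the age nor the number of the mice, nor any pooling. Each subset was measured once, so values have neither a standard deviation nor a test: a difference describes 2 arrays, whose number limits the precision. Values are MAS5 signals on a linear scale, signals under the floor of 55.3 count as background, and a difference was called at 4-fold or more.

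Transferrin brings iron to most cells through the transferrin receptor, from which it is taken up into endosomes, reduced and pumped into the cytosol. There it is used in mitochondria, stored inside ferritin shells or exported by ferroportin. Phagocytes of the spleen also recover iron from the haem of old red cells and withhold metals from ingested microbes. Zinc is brought into the cytosol by ZIP carriers, removed from it by ZnT carriers and buffered by metallothioneins. In mouse DCs, stimulation of Toll-like receptors is known to lower Slc39a6 and free zinc, which alters the surface display of MHC class II molecules.

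Of the surface markers used to sort, Cd8a transcripts read 2530, 4742, 18.7 and 130 on the CD8+CX3CR1+, CD8+CX3CR1-, CD4+ and DN arrays, and Cd4 read 93.3, 21.1, 564 and 93.9. The DC genes Itgax, Flt3, Zbtb46, H2-Ab1 and Cd74 were above the floor on all 4 arrays. A second label field gives CD8+CX3CR1+ for the sample titled CD8+CX3CR1- and CD4+ for the sample titled DN, and the titles were followed. Cd4 was higher in the sample titled CD4+ (564) than in the one titled DN (93.9). No Cx3cr1 value is given here, so the titles of the 2 CD8+ samples were not checked by that gene. Genes known from CD8 DCs were lower in the CD8+CX3CR1+ sample than in the CD8+CX3CR1- sample. Xcr1 was under the floor in the former (22.9 against 519), Irf8 read 1409 against 13285 and Naaa 772 against 7460. The 6 such genes on the platform, Cd8a among them, had a summed signal of 5078 in the CD8+CX3CR1+ sample, 29964 in the CD8+CX3CR1- sample, 1125 in the CD4+ sample and 7408 in the DN sample. Irf8 (4847) and Naaa (1985) made up most of the sum in the DN sample. Siglech and Tcf4, genes of plasmacytoid DCs, were highest in the CD8+CX3CR1+ sample (206 and 3489). Whether such differences in cell makeup bear on the metal genes was not tested. The CD4+ sample stood somewhat apart, with 47.9% of probe sets above the floor against 41.2% to 42.7% on the other 3. Its Gapdh 3'/5' ratio was 11.8 against 7.56 to 8.98, a ratio that is higher when RNA is less intact. The 3' signal was the stronger on every array, and not in the CD4+ sample alone. For beta-actin the ratios were 2.32, 1.79, 2.86 and 2.23 on the CD8+CX3CR1+, CD8+CX3CR1-, CD4+ and DN arrays. The part of this 3' bias in probe sets that disagree was not tested. A gene's log2 difference varied over its probe sets with a standard deviation whose median was 0.30 to 0.42 in the 6 pairs of arrays (5548 genes), and this measures probe error and not the spread between mice. In sorted bulk samples, fewer cells of a type and less RNA per cell cannot be told apart.

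In the CD8+CX3CR1- sample, the signals of the transferrin receptor gene Tfrc, the mitochondrial iron carrier gene Slc25a37 and the ferritin gene Fth1 were lower than on the other 3 arrays, and those of the metal transporter gene Slc11a1 and of the metallothionein gene Mt1 were higher. The margin over the next highest sample was 4.81-fold for Slc11a1 (over CD8+CX3CR1+) but 1.66-fold for Mt1 (over CD4+). Slc11a2, another gene of iron uptake, was not low in the CD8+CX3CR1- sample. Of the 32 detected members, 13 were lowest in the CD8+CX3CR1- sample, where 22.0% of all detected genes were lowest. No least difference was asked for in this count. Among the 13 were Mt2, near or under the floor on all 4 arrays, and Slc39a3, with a range of 1.42-fold. Another 3 members were lowest in the CD8+CX3CR1+ sample, 4 in the CD4+ sample and 7 in the DN sample, against 15.4%, 18.8% and 14.3% of all genes. The range over the 4 arrays reached 4-fold for 4 members (Mt1, Slc11a1, Slc25a37 and Slc39a13), against 4.66% of all detected genes. It reached 2-fold for 12 members, against 28.4% of all.

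**Figure D1:**
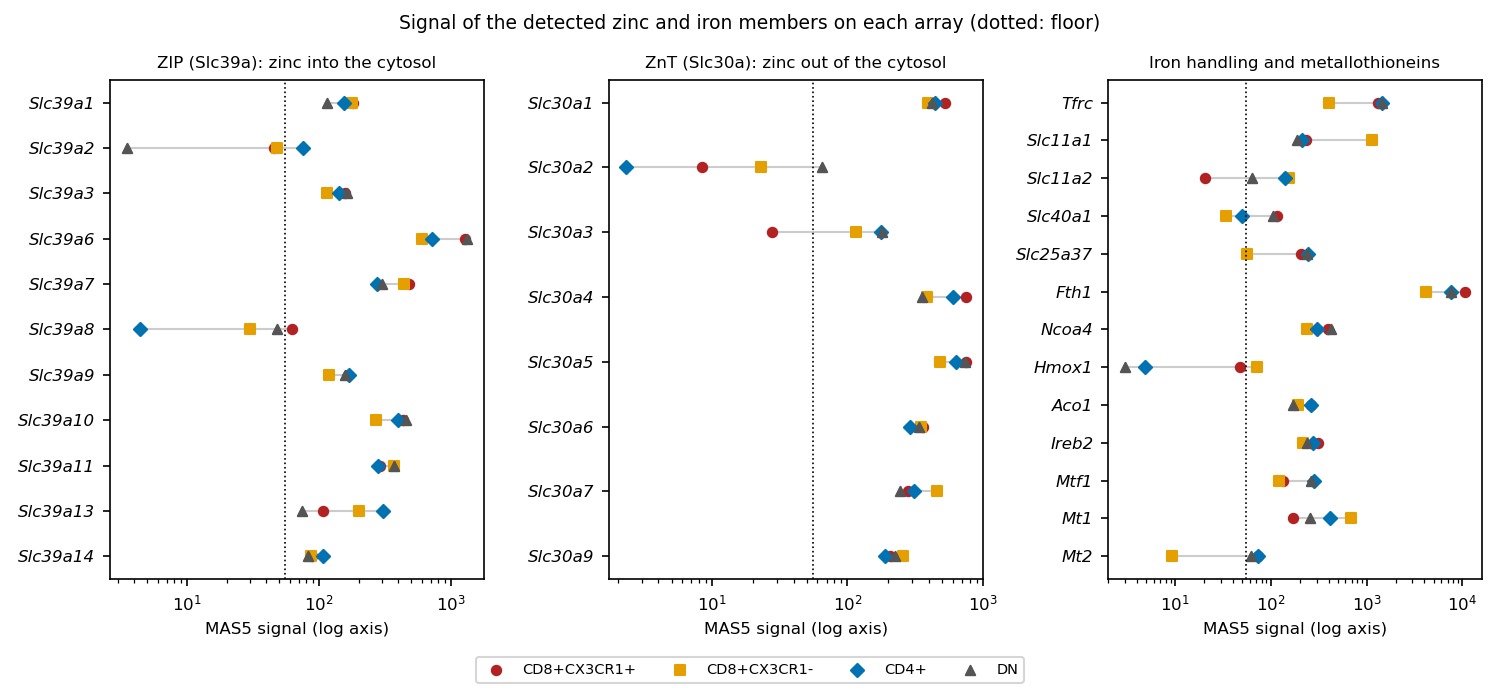
MAS5 signal (log axis) of the 32 detected members in 3 panels, with a marker for each of the 4 arrays and a dotted line at the floor of 55.3. Most members lie within a narrow band; the CD8+CX3CR1- sample is set apart to the right for Slc11a1 (1127) and to the left for Tfrc (409), Slc25a37 (56.4) and Fth1 (4117).

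Slc11a1, also called Nramp1, encodes a proton-coupled metal transporter of late endosomes and phagosomes that in mouse macrophages limits the growth of ingested microbes. C57BL/6 mice are known to carry an allele whose protein does not work, so the transcript can be read here but a working transporter is not implied. Its signal was 234 in the CD8+CX3CR1+ sample, 1127 in the CD8+CX3CR1- sample, 210 in the CD4+ sample and 189 in the DN sample. The CD8+CX3CR1- sample stood alone, and the other 3 lay within 1.24-fold of each other. Slc11a1 was 4.81-fold lower in the CD8+CX3CR1+ sample than in the CD8+CX3CR1- sample, and in the CD8+CX3CR1- sample it was 5.37-fold higher than in the CD4+ sample and 5.97-fold higher than in the DN sample. The gene has a single probe set, so probe sets could not be compared, but each of the 3 differences passed 4-fold under all 9 other settings. The neutrophil genes S100a8, S100a9, Camp, Ngp and Ltf, cells in which Slc11a1 is also abundant, had a summed signal of 151 in the CD8+CX3CR1+ sample, 218 in the CD8+CX3CR1- sample, 252 in the CD4+ sample and 137 in the DN sample. Most of these signals were under the floor. S100a8 exceeded it in the CD8+CX3CR1- sample alone (24.7, 82.1, 29.7 and 7.1 in the same order), Ngp and Ltf exceeded it in 2 and 3 samples, and S100a9 and Camp in 0. The part of neutrophils in the Slc11a1 signal was not tested.

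Tfrc, the transferrin receptor, which takes up iron bound to transferrin, had a signal of 1327 in the CD8+CX3CR1+ sample, 409 in the CD8+CX3CR1- sample, 1453 in the CD4+ sample and 1448 in the DN sample. Only the CD8+CX3CR1- sample was low. Tfrc was 3.25-fold higher in the CD8+CX3CR1+ sample than in the CD8+CX3CR1- sample, and the CD8+CX3CR1- sample was 3.55-fold lower than the CD4+ sample and 3.54-fold lower than the DN sample, all short of the 4-fold threshold. The 2 other probe sets of the gene were dim, at 82.0 and 57.7 in the CD8+CX3CR1+ sample and both under the floor in the CD8+CX3CR1- sample, which bounds that difference at 0.57 and 0.06 (log2). Tfrc also serves as an integrity control on this array, with extra probe sets along the transcript. The one at the 3' end read 76.7, 24.9, 85.8 and 103 on the CD8+CX3CR1+, CD8+CX3CR1-, CD4+ and DN arrays, while the middle and 5' ones were under the floor on all 4. Transferrin receptor is also abundant in dividing cells, and the 16 detected cell cycle genes had a median log2 difference of -0.72 for CD8+CX3CR1+ over CD8+CX3CR1-, of 0.30 for CD8+CX3CR1- over CD4+ and of -0.20 for CD8+CX3CR1- over DN. The part of cell division in the Tfrc signal was not tested. The macrophage and monocyte gene Csf1r was low in the same sample as Tfrc. It read 11291 in the CD8+CX3CR1+ sample, 498 in the CD8+CX3CR1- sample, 13894 in the CD4+ sample and 9142 in the DN sample. The other monocyte markers on the platform did not share this order. Ccr2 read 705, 225, 143 and 540 in the same order of arrays, lowest in the CD4+ sample, and Fcgr1 exceeded the floor in the CD4+ sample alone (68.0). The 5 genes of CD4 and CD11b DCs on the platform summed to 1883, 226, 2467 and 1717 in the same order. Among them Sirpa read 731, 64.1, 963 and 687, while Esam, at 167, 135, 582 and 464, was low on both CD8+ arrays. The part of macrophages, monocytes or such DCs in the Tfrc pattern was not tested.

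Slc25a37, also called mitoferrin, is the carrier that brings iron into mitochondria and is best known from red cell precursors. Its signal was 208 in the CD8+CX3CR1+ sample, 56.4 in the CD8+CX3CR1- sample, 246 in the CD4+ sample and 238 in the DN sample. The CD8+CX3CR1- value was just over the floor and within the background of its own array, whose 90th percentile was 62.2. This gene too has a single probe set, so probe sets could not be compared. Slc25a37 was 3.70-fold higher in the CD8+CX3CR1+ sample than in the CD8+CX3CR1- sample, and the CD8+CX3CR1- sample was 4.37-fold lower than the CD4+ sample and 4.23-fold lower than the DN sample. The last 2 differences passed 4-fold under 5 of 8 other settings, and neither did with each array's own background as its floor, which puts 62.2 in place of 56.4. Of 6 erythroid markers on the platform, 5 were under the floor on every array, among them Hba-a1 (at most 52.4), Alas2 and Klf1, and Rhag reached 61.5 in the DN sample. Slc25a28, the second mitoferrin gene and no member of the module, read 439, 423, 447 and 413 in the same order of arrays and did not share the pattern.

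Fth1, the heavy chain of ferritin, which oxidises iron as it is stored, had a signal of 10621 in the CD8+CX3CR1+ sample, 4117 in the CD8+CX3CR1- sample, 7580 in the CD4+ sample and 7559 in the DN sample. It was 2.58-fold higher in the CD8+CX3CR1+ sample than in the CD8+CX3CR1- sample, and its second probe set gave 7878, 3930, 9831 and 5489 in the same order, again lowest in the CD8+CX3CR1- sample. The 2 probe sets did not give the same order for CD8+CX3CR1+ over CD4+, with log2 differences of 0.49 and -0.32. Ncoa4, the receptor that delivers ferritin to lysosomes, read 390, 241, 301 and 421, so the CD8+CX3CR1- sample was lowest here too, 1.74-fold below the DN sample.

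Of the other uptake genes, Slc11a2 (DMT1), which pumps iron out of endosomes, showed a different order, with 20.3 in the CD8+CX3CR1+ sample, 154 in the CD8+CX3CR1- sample, 142 in the CD4+ sample and 64.1 in the DN sample. It was at least 2.79-fold lower in the CD8+CX3CR1+ sample than in the CD8+CX3CR1- sample, and at least 2.57-fold lower than in the CD4+ sample. Its only other probe set above the floor read 8.6, 68.7, 107 and 64.1, so the CD8+CX3CR1+ sample was lowest with both. Steap3, the reductase that works beside it in red cell precursors, stayed under the floor on all 4 arrays.

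Slc40a1, ferroportin, the known iron exporter, could not be ordered, because its 2 probe sets disagreed. The one with the higher mean log2 signal read 116 in the CD8+CX3CR1+ sample, 33.8 in the CD8+CX3CR1- sample, 49.8 in the CD4+ sample and 105 in the DN sample. The other read 348, 38.4, 215 and 2.1 in that order. Both placed the CD8+CX3CR1+ sample highest and the CD8+CX3CR1- sample under the floor, with lower bounds on the log2 difference between them of 1.07 by the first probe set and 2.66 by the second. They were opposed for CD4+ over DN, with log2 differences of -0.93 and 1.96. Ferroportin is abundant in red pulp macrophages. All 10 of their markers were above the floor on at least 1 array, as were 12673 of the 18193 genes measured. Of the 10, Cd163, Mertk and Axl exceeded it on 1 array only. The 10 had a summed signal of 2476 in the CD8+CX3CR1+ sample, 945 in the CD8+CX3CR1- sample, 4391 in the CD4+ sample and 2163 in the DN sample. Within that list C1qa read 197, 27.9, 203 and 40.0 and Cd5l 177, 34.7, 148 and 55.3, while Spic lay between 56.9 and 79.6 and Cd163 reached at most 73.8. Adgre1, at 578, 143, 3068 and 1692, made up most of the sum in the CD4+ sample, and Vcam1, at 291, 513, 142 and 109, was highest in the CD8+CX3CR1- sample. Their part in the Slc40a1 signal was not tested. Hmox1, haem oxygenase, which frees iron from haem, was above the floor in the CD8+CX3CR1- sample alone, at 71.6. It read 47.4 in the CD8+CX3CR1+ sample, 4.8 in the CD4+ sample and 3.0 in the DN sample. The value of 71.6 was near the 90th percentile of its own array's background (62.2). With the floor at the 95th percentile (71.9), Hmox1 was under it on every array.

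**Figure D2:**
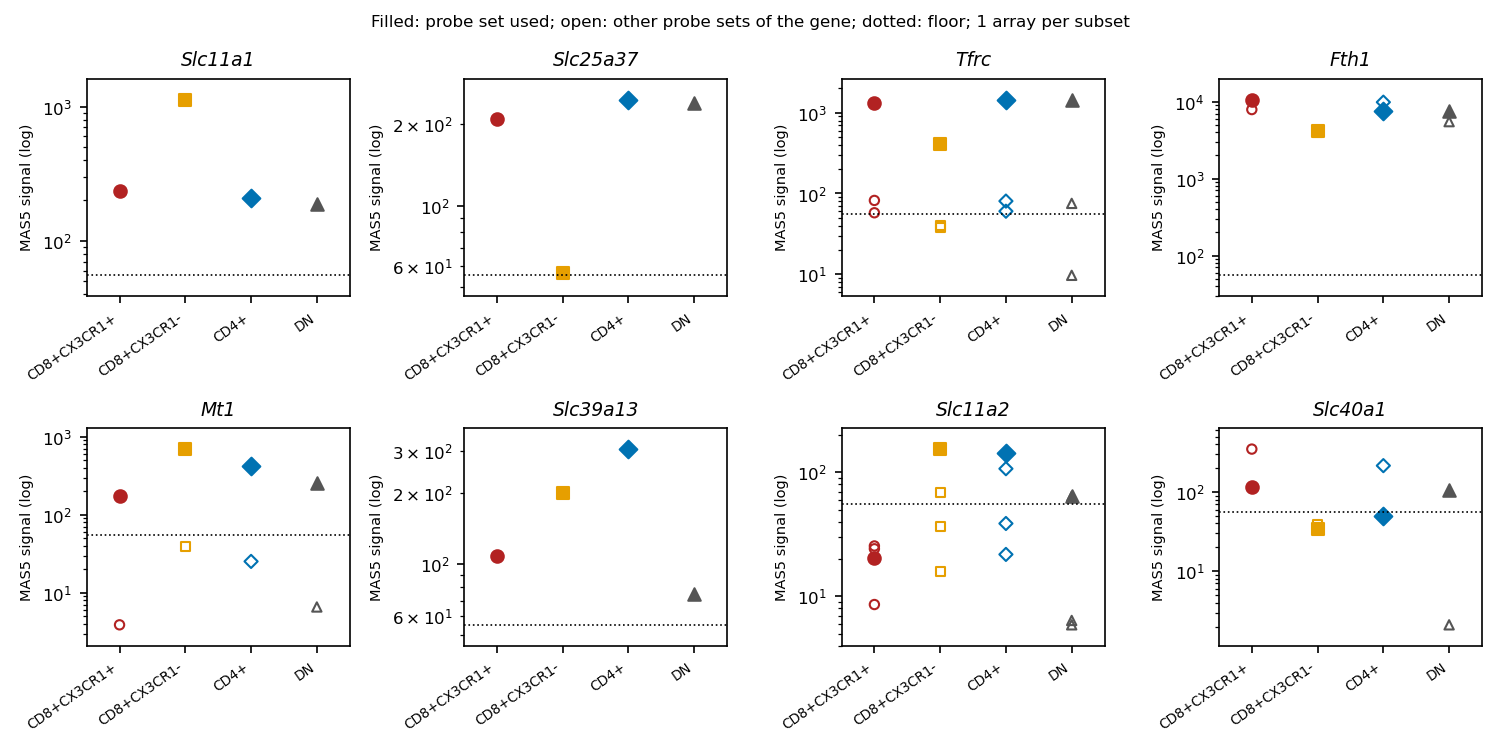
MAS5 signal (log axis) of 8 members on each array, with the probe set used as a filled marker, the gene's other probe sets as open markers and the floor as a dotted line. Tfrc, Fth1 and Slc25a37 are lowest and Slc11a1 highest in the CD8+CX3CR1- sample, and the 2 Slc40a1 probe sets part in the DN sample (105 against 2.1).

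Transcripts of Aco1 and Ireb2 varied little. Aco1 and Ireb2 encode the iron regulatory proteins, which bind messenger RNAs such as those of ferritin and the transferrin receptor when iron is scarce, and so slow ferritin translation and protect the receptor's message. Aco1 read 264, 190, 262 and 170 and Ireb2 311, 217, 273 and 239 on the CD8+CX3CR1+, CD8+CX3CR1-, CD4+ and DN arrays, with ranges of 1.55-fold and 1.43-fold. The arrays measure messenger RNA and not the binding of these proteins.

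Metallothioneins are small cysteine-rich proteins that bind zinc and are switched on by the zinc-sensing factor encoded by Mtf1. Mt1 had a signal of 172 in the CD8+CX3CR1+ sample, 694 in the CD8+CX3CR1- sample, 419 in the CD4+ sample and 255 in the DN sample. It was 4.02-fold lower in the CD8+CX3CR1+ sample than in the CD8+CX3CR1- sample. The probe set carries the suffix _s, which marks probes that match several transcripts, and the second probe set was under the floor on all 4 arrays (at most 39.6), so the call rests on 1 probe set. Mt2 was dim, with 72.9 in the CD8+CX3CR1+ sample, 9.4 in the CD8+CX3CR1- sample, 74.1 in the CD4+ sample and 61.9 in the DN sample, all near or under the floor, so its order over the arrays could not be read. Mtf1 read 133, 122, 282 and 261 in the same order of arrays, and its 4 other probe sets did not share that order, with log2 differences of -1.15 to 1.91 for CD4+ over DN among those above the floor.

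Mtf1 protein binds metal response elements, whose core reads TGCACNC or TGCGCNC. The windows upstream of Mt1, Mt2 and of the zinc exporter gene Slc30a1, a known target of the same factor, are shown as examples. These 3 genes are not the only members that hold the letters of the core. Over the arrays Mt1 had a range of 4.02-fold and Slc30a1 one of 1.35-fold. Each sequence is the 250 bases before the gene start in RefSeq (GRCm38.p6), 5′ to 3′ on the gene's strand, with each match to the core, on either strand, in capitals. They are chr8:94178839-94179088 (plus strand) for Mt1, chr8:94172368-94172617 (plus strand) for Mt2 and chr1:191906531-191906780 (plus strand) for Slc30a1.
Mt1: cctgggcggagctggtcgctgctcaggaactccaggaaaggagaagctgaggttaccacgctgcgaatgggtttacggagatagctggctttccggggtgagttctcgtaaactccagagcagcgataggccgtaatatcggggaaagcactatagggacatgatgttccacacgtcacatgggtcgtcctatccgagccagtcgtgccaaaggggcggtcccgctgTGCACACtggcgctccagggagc
Mt2: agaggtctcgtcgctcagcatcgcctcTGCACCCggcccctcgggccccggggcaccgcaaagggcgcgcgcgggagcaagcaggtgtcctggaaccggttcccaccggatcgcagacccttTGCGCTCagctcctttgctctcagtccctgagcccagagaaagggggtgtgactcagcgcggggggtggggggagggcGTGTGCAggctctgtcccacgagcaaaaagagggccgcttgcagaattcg
Slc30a1: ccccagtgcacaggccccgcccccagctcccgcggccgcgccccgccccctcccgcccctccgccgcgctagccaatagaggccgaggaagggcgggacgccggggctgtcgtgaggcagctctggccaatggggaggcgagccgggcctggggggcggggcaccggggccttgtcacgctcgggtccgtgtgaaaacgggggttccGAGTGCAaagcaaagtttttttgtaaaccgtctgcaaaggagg

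With the 50 bases past the start added, the Mt1 window held 3 matches, the Mt2 window 4 and the Slc30a1 window 2. The 2 further Mt1 matches stand in this stretch at its start, chr8:94179087-94179116.
Mt1 start: gctcTGCACTCcgcccgaaaagTGCGCTCg
At least 1 match was found in 25.7% of all 32851 windows of 300 bases and at least 3 in 1.97%. There were 42 windows for 30 of the 38 members. Of these windows 17, from 16 members, held a match, and those of Slc30a4 and Slc30a10 held 3 each. A match is a description of letters and does not show binding.

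Among the ZIP genes, which bring zinc into the cytosol from outside the cell or from organelles, 11 of 14 were detected and 1 passed 4-fold in any pair, against 4.66% of all detected genes. That gene was Slc39a13, a carrier of the Golgi and vesicles, with 108 in the CD8+CX3CR1+ sample, 200 in the CD8+CX3CR1- sample, 306 in the CD4+ sample and 74.7 in the DN sample. It was 4.09-fold higher in the CD4+ sample than in the DN sample, by the gene's only probe set. The CD4+ sample is also the one with the highest share of probe sets above the floor, and with all arrays scaled to an equal median the difference was 1.75 (log2), short of the 2 that corresponds to 4-fold.

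Slc39a6, a zinc importer of the plasma membrane, read 1268 in the CD8+CX3CR1+ sample, 600 in the CD8+CX3CR1- sample, 715 in the CD4+ sample and 1319 in the DN sample. The CD8+CX3CR1+ and DN samples were high and the other 2 low. It was 2.11-fold higher in the CD8+CX3CR1+ sample than in the CD8+CX3CR1- sample, and 2.20-fold lower in the CD8+CX3CR1- sample than in the DN sample. Of its 3 other probe sets, all dim, 2 gave a difference for CD8+CX3CR1- over DN, -1.09 and 0.08 (log2). Slc39a10, its closest relative, read 430, 272, 394 and 455 in the same order of arrays and was likewise lowest in the CD8+CX3CR1- sample. Slc39a7, which releases zinc from the endoplasmic reticulum, was higher on the 2 CD8+ arrays (478 and 443) than on the CD4+ and DN arrays (276 and 299).

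Slc39a1, Slc39a3, Slc39a9, Slc39a11 and Slc39a14 had ranges under 2-fold. Slc39a1 and Slc39a3, importers of the plasma membrane, spanned 114 to 182 and 115 to 163, Slc39a9, a carrier of the Golgi, spanned 120 to 168, and Slc39a11 spanned 281 to 373. Slc39a14, which also carries iron not bound to transferrin, lay between 82.8 and 107. Slc39a8, a related carrier of zinc, manganese and iron, was above the floor in the CD8+CX3CR1+ sample alone (62.0), and Slc39a2 in the CD4+ sample alone (76.3), so their ranges have only a lower bound. Slc39a4 and Slc39a5, known from intestine and pancreas, and Slc39a12, known from brain, were under the floor on all 4 arrays.

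Of the ZnT genes, which move zinc out of the cytosol, 8 of 10 were detected and 0 passed 4-fold in any of the 6 pairs, where 4.66% of all detected genes did, so a count of 0 is near that share. Slc30a1, the exporter of the plasma membrane, read 530, 392, 440 and 421 on the CD8+CX3CR1+, CD8+CX3CR1-, CD4+ and DN arrays, a range of 1.35-fold. Slc30a4, a carrier of endosomes, read 750, 388, 601 and 357, and was 2.10-fold higher in the CD8+CX3CR1+ sample than in the DN sample. Slc30a5 and Slc30a6, which together load zinc into enzymes of the secretory pathway, spanned 487 to 751 and 291 to 361. Slc30a7, another carrier of the Golgi, was highest in the CD8+CX3CR1- sample (458, against 246 to 309 on the others), though its second probe set gave 218 there and 170 to 235 on the others. Slc30a9, a mitochondrial carrier, spanned 189 to 256.

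Slc30a3, best known for loading zinc into synaptic vesicles, was under the floor in the CD8+CX3CR1+ sample (27.8), against 115 in the CD8+CX3CR1- sample, 176 in the CD4+ sample and 180 in the DN sample. It was at least 3.25-fold lower in the CD8+CX3CR1+ sample than in the DN sample. Slc30a2 was above the floor in the DN sample alone (64.8). Slc30a8, known from insulin granules, and Slc30a10, a manganese exporter, were under the floor on all 4 arrays.

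By pair of arrays, 2 of 30 members with a difference were called for CD8+CX3CR1+ over CD8+CX3CR1-, against 3.33% of all genes, namely Mt1 and Slc11a1, each lower. At 2-fold the count was 9 of 30, against 15.9% of all genes: Fth1, Slc25a37, Slc39a6, Slc40a1 and Tfrc were higher, and Mt1, Slc11a1, Slc11a2 and Slc30a3 lower. The median log2 difference of the members was 0.28, against 0.01 over all detected genes. For CD8+CX3CR1- over CD4+, 2 of 29 were called, Slc11a1 higher and Slc25a37 lower, against 3.22% of all genes, 4 passed 2-fold (Mtf1 and Tfrc with them, both lower), against 17.2%, and the median was -0.32 against -0.07. For CD8+CX3CR1- over DN, the same 2 genes of 30 were called in the same directions, against 2.36%, and 8 passed 2-fold, against 12.8%, with a median of -0.12 against 0. These 3 pairs share the CD8+CX3CR1- sample.

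The other 3 pairs do not include the CD8+CX3CR1- sample. For CD4+ over DN, 1 of 30 members was called, Slc39a13, against 0.273% of all genes, and 2 passed 2-fold, against 8.21%, with a median of 0.06 that equalled the median over all genes. For CD8+CX3CR1+ over CD4+ and for CD8+CX3CR1+ over DN, 0 of 30 members were called, against 0.844% and 0.485% of all genes, and 6 and 2 passed 2-fold, against 10.3% and 6.99%. With 1 array per group no p-value exists for any of these counts.

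**Figure D3:**
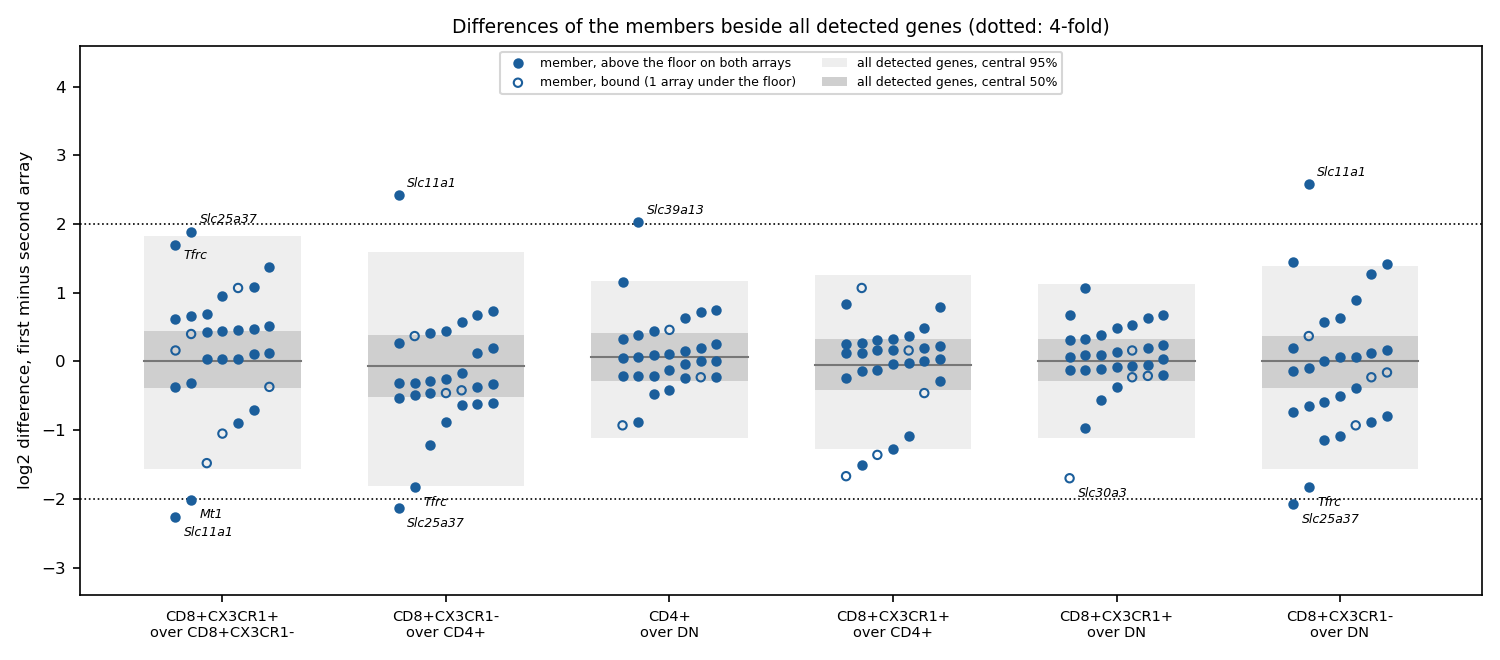
Log2 differences of the members (points; open where 1 array was under the floor) for the 6 pairs of arrays, over the central 50% and 95% of all detected genes (dark and light bars, with the median as a line), and dotted lines at 4-fold. Most members lie inside the light bars, and Slc11a1 lies outside the 95% bar in all 3 pairs with the CD8+CX3CR1- sample (-2.27, 2.42 and 2.58).

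Further genes of the same pathways were read as lists. Of the other genes of iron uptake, storage and export, 19 of 26 on the platform were detected. For CD8+CX3CR1+ over CD8+CX3CR1-, 1 of the 14 with a difference passed 4-fold, against 3.33% of all genes. It was Cp, ceruloplasmin, which oxidises iron for export. Cp read 260 in the CD8+CX3CR1+ sample against 40.3, 55.6 and 9.1 on the CD8+CX3CR1-, CD4+ and DN arrays, at least 4.69-fold higher than in the CD8+CX3CR1- sample. Rab11a, which returns receptors from endosomes to the surface, was 1326, 3521, 1206 and 1563 in the same order, and Fbxl5, which senses iron and marks iron regulatory protein for breakdown, was 97.4, 174, 60.8 and 140. Hfe, which binds the transferrin receptor, read 2002, 3198, 3822 and 2042.

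Of the genes of haem uptake, breakdown and synthesis, 20 of 23 were detected. For CD8+CX3CR1+ over CD8+CX3CR1-, 1 of 18 was at least 4-fold higher and 0 lower, and 4 were at least 2-fold higher and 1 lower, against 3.33% of all genes past 4-fold and 15.9% past 2-fold either way. The gene past 4-fold was Lrp1, a receptor for haem bound to hemopexin and many other ligands, with 321, 37.2, 277 and 171 on the CD8+CX3CR1+, CD8+CX3CR1-, CD4+ and DN arrays. Flvcr1, a haem exporter, read 523, 176, 685 and 694, lowest in the CD8+CX3CR1- sample as Tfrc was. Bach1, a repressor of Hmox1 that haem inactivates, read 2002, 712, 1168 and 1909, and was 2.81-fold higher in the CD8+CX3CR1+ sample than in the CD8+CX3CR1- sample. Uros, an enzyme of haem synthesis, was under the floor in the CD4+ sample alone (27.2, against 213 on the CD8+CX3CR1+, 177 on the CD8+CX3CR1- and 140 in the DN sample).

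The 18 detected genes of iron-sulfur cluster assembly, in mitochondria and in the cytosol, held 0 calls in any of the 6 pairs. Of all detected genes 4.66% had a range of at least 4-fold, a share near which 0 of 18 lies. The median log2 differences of the list were -0.22 to 0.10. Mms19 (358, 241, 617 and 230) and Abcb10 (103, 133, 254 and 144) had the widest ranges of this list and were both highest in the CD4+ sample. Of the other zinc and copper genes, 16 of 21 were detected. Car2, the zinc enzyme carbonic anhydrase, was the one with a range past 4-fold, against 4.66% of all detected genes. It read 213, 50.7, 312 and 231, and was at least 5.63-fold lower in the CD8+CX3CR1- sample than in the CD4+ sample. The copper exporter Atp7a was 718 and 527 on the CD8+CX3CR1+ and CD8+CX3CR1- arrays against 300 on the CD4+ and 313 in the DN sample.

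Among 13 other carriers of divalent cations, all detected, 1 had a range past 4-fold, against 4.66% of all detected genes. Trpm2, a calcium channel of the plasma membrane that oxidative stress opens, read 206 in the CD8+CX3CR1+ sample, 2028 in the CD8+CX3CR1- sample, 512 in the CD4+ sample and 332 in the DN sample. It was 9.86-fold lower in the CD8+CX3CR1+ sample than in the CD8+CX3CR1- sample and shared with Slc11a1 a single high array. Immediate early and stress genes had a median log2 difference of -0.30 for CD8+CX3CR1+ over CD8+CX3CR1- over 20 detected genes. There 14 lay lower and 6 higher in the CD8+CX3CR1+ sample, where over all detected genes 5268 lay lower and 5483 higher. Of the 20, 1 passed 4-fold, Jun (327 against 75.8), against 3.33% of all genes.

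**Figure D4:**
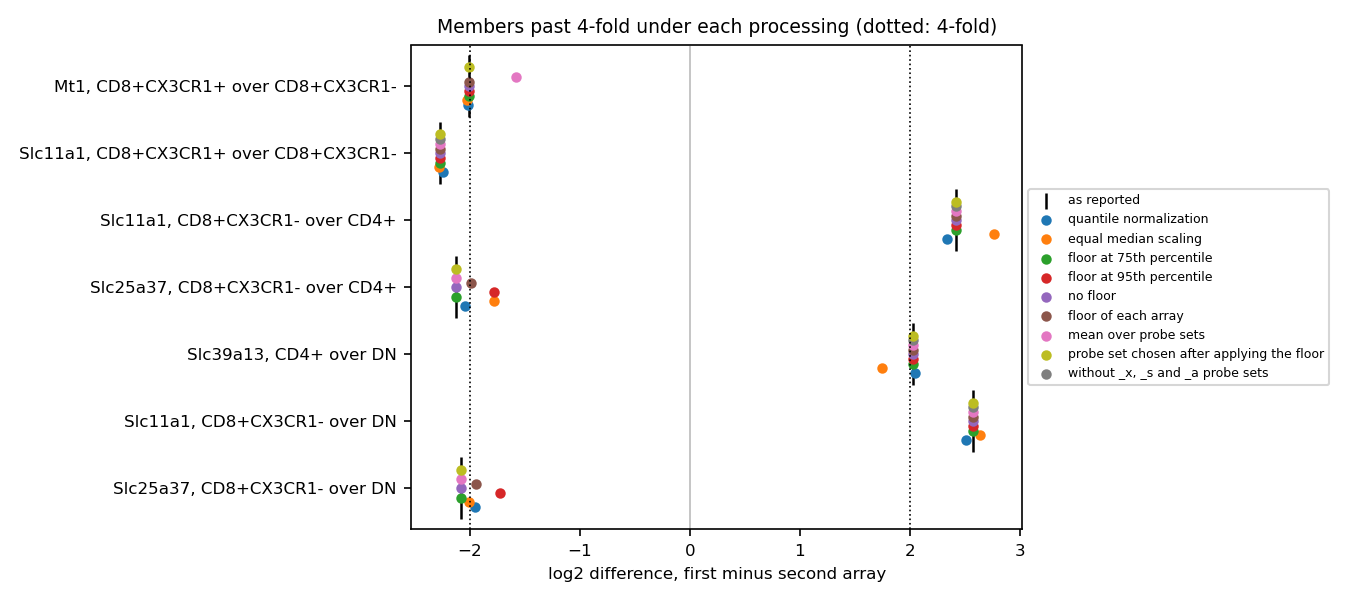
Log2 differences of each member past 4-fold, by pair of arrays, as reported (vertical tick) and under each other processing (coloured points), with dotted lines at 4-fold. Slc11a1 stays past 4-fold throughout, whereas Slc25a37, Slc39a13 and Mt1 cross the line under at least 1 setting.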

How the data were processed

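Per the submitters' processing notes, MAS5 gave the deposited intensity (signal) of each probe set on Affymetrix Mouse Genome 430 arrays, with no version named. Trimmed by 2% at both ends, every array's mean equalled 150.0, so total RNA per cell is lost from view. Of 45101 probe sets, 34945 non-control ones have 1 gene symbol in the platform annotation and were named. The floor was the 90th percentile of 130 probe sets, over all arrays together, for odorant, taste and trace amine receptors and hair keratin partners. Lower values were raised to it, and a fold with 1 array under it is a bound. Log2 differences were computed in Python 3.11.15 with pandas 2.3.3 and numpy 2.4.6, and the steps were tested on simulated data. The members and lists were chosen with earlier results of these data known. All members were named, and up to 4 genes of each further list with the widest ranges, plus Slc25a28, Ltf and marker genes chosen after their values were seen. Another 8 settings were planned and 1 was added afterwards. Samples were grouped by title. Promoter sequences are from RefSeq (GRCm38.p6).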

Additional observations from a re-analysis of the deposited data

How the results depend on the processing

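Of 1551 differences of single members recomputed under 9 other settings, 1460 moved by less than 0.36 (log2, the median probe set spread), 91 moved further, and 0 of the called ones changed sign. Counts of members past 4-fold were small and moved by single genes. Without a floor they were 9 for CD8+CX3CR1+ over CD8+CX3CR1-, 11 for CD8+CX3CR1- over CD4+, 5 for CD4+ over DN, 6 for CD8+CX3CR1+ over CD4+, 5 for CD8+CX3CR1+ over DN and 9 for CD8+CX3CR1- over DN, since signals near 0 then enter as they are. With the floor at the 75th percentile (35.2) they were 2 for CD8+CX3CR1+ over CD4+ and 1 for CD8+CX3CR1+ over DN. For CD8+CX3CR1+ over CD8+CX3CR1-, 1 member remained (Mt1 lost) with probe sets averaged or without _x, _s and _a probe sets. For CD8+CX3CR1- over CD4+ the count was 1 (Slc25a37 lost) with equal medians, with the floor at the 95th percentile (71.9), with a floor for each array and without suffixed probe sets. For CD8+CX3CR1- over DN it was 1 with quantile normalization, with the floor at the 95th percentile, with a floor for each array and without suffixed probe sets. Equal medians left 0 for CD4+ over DN, where they moved the median of all genes to -0.19 (0.24 for CD8+CX3CR1- over CD4+ and 0.26 for CD8+CX3CR1+ over CD4+). Choosing the probe set after applying the floor, a setting added after seeing the data, gave 1 for CD8+CX3CR1+ over DN (Slc40a1, 2.66 on the log2 scale). Some differences short of 4-fold turned with probe sets averaged: Slc40a1 gave 0.90 for CD4+ over DN (-0.93 as reported) and Mtf1 0.25 for CD8+CX3CR1+ over CD4+ (-1.08 as reported), while Tfrc shrank to -0.26 for CD8+CX3CR1- over DN. No paired analysis was possible because each group has 1 array.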
